A study of Mus musculus with 18 samples.

Results

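Naive cells, grown in the absence of any added aryl hydrocarbon receptor (AHR) ligand, were compared between 2 mouse hepatoma lines. Wild-type Hepa-1c1c7 cells carry a receptor that binds DNA. Their derivative line *c*35 carries an *Ahr* mutation that leaves the receptor able to take up ligand but not to bind DNA. The comparison used 6 of the 18 arrays of the series, namely 3 biological replicates of each line, and 45037 of the 45101 probe sets, with the array's own control probe sets left out. All 6 cultures were of C57BL/6 origin by label, grew in alpha MEM with 5% fetal bovine serum and received the solvent DMSO for 8 hr. The other 12 arrays held the same lines after 8 hr of the dioxin TCDD (5 nM on the *c*35 labels, with no dose on the wild-type labels) or benzo[*a*]pyrene (BaP, 5 µM), with 3 arrays a group. Because *c*35 is a single mutant derivative line, the loss of DNA binding by the receptor and any other difference between the lines cannot be told apart.

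The AHR is a transcription factor of the basic helix-loop-helix PAS family that waits in the cytosol bound to HSP90 and other chaperones. Ligand sends it to the nucleus, where it pairs with ARNT and binds short elements with the core GCGTG near genes such as *Cyp1a1*, *Cyp1b1*, *Tiparp* and *Nqo1*, the so-called AHR gene battery. The receptor is also known to have roles in liver and vascular development that need no foreign ligand, so a pair of lines that differ in its DNA binding, both without ligand, bears on what the naive receptor does.

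Values are log2 signals, so that a difference of 1 is a 2-fold change, and every difference is given as wild-type minus *c*35. A gene was called higher or lower where limma's adjusted p was under 0.05 and the change above 1.5-fold. Where several probe sets named a gene, the brightest on average over the 18 arrays stood for it. Signals of different genes are not comparable on this array, and the deposited values come without detection calls, so that a fold change against a low signal depends on the background correction.

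Before the lines were compared, the arrays were compared with each other. Correlations across probe sets were 0.993 to 0.997 among the naive wild-type arrays, 0.997 to 0.998 among the naive *c*35 arrays and 0.970 to 0.980 between lines. No 2 arrays were identical. The 3′ minus 5′ signal of the beta-actin control, a measure of RNA integrity and labeling, was 1.38, 0.85 and 0.81 on the wild-type arrays and 0.43, 0.43 and 0.33 on the *c*35 arrays, so that it moved with the line, and its part in the results was tested only by adding it to the model. Wild-type replicate 1 stood apart in this measure. *c*35 replicate 3 stood apart in the signals of several AHR battery genes. Where leaving out either array ended the call of a gene named here, or moved a list count by over 1.5 times, the value without it is given. The liver markers *Alb* and *Afp* were both bright in both lines, *Afp* at 11.80 to 12.34 in wild-type and 11.89 to 11.98 in *c*35 cells. Most liver genes were not: the median signal of 49 measured plasma protein genes was 5.13 in each line, against 6.48 over all genes. The hematopoietic marker *Ptprc* lay between 2.75 and 3.00. The label gives both lines as male, but *Xist*, the RNA of the inactive X chromosome, was bright in both, at 13.60, 13.79 and 13.74 in wild-type and 13.42, 13.34 and 13.19 in *c*35 cells, and the Y-linked markers measured lay between 2.39 and 4.95.

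Of 18193 genes, 1369 (7.52%) were higher and 1186 (6.52%) lower in naive wild-type than in naive *c*35 cells, and 15638 were not called. The median over all genes was −0.027, which the quantile normalization of the deposited values holds near 0, so that the values do not bear on the total RNA of either line. The change exceeded 4-fold for 89 of the higher and 87 of the lower genes, and 16-fold for 15 and 6 genes. The 3 wild-type and 3 *c*35 arrays did not overlap for 2550 of the 2555 called genes, against 47.4% of all genes. When every probe set of a gene was read, 3624 probe sets were higher and 2826 lower, and 62 of the 2555 called genes had another probe set called in the opposite direction.

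**Figure D1:**
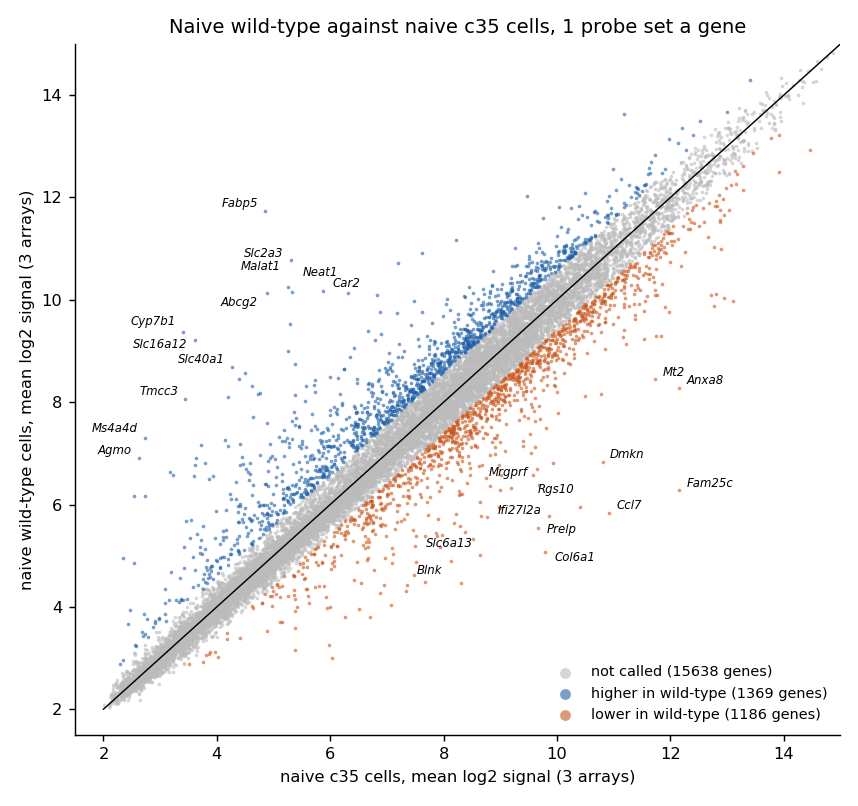
Mean log2 signal of 18193 genes in naive *c*35 cells (x axis) and naive wild-type cells (y axis), 3 arrays a line and 1 probe set a gene, with the line of equality. The 1369 genes higher in wild-type cells lie above the line and the 1186 lower genes below it, and the 12 largest differences in each direction are named.

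*Ahr* transcript itself was higher in wild-type cells. The *Ahr* signal was 10.51, 10.55 and 10.53 in wild-type cells and 9.59, 9.41 and 9.57 in *c*35 cells. All wild-type arrays were above all *c*35 arrays, and the difference was 1.01 ± 0.075 (SE, limma, n = 3 arrays a line, adjusted p = 1.33e-09), a 2.01-fold change. A second *Ahr* probe set was dim and overlapped between lines, with a difference of 0.065 (limma adjusted p = 0.67), and the mean of both probe sets differed by 0.54, under 1.5-fold. *Arnt*, the gene of the dimerization partner, had signals of 7.77, 7.90 and 7.83 against 7.21, 7.06 and 7.01, with no overlap and a difference of 0.74 ± 0.09 (limma adjusted p = 1.91e-06), and 2 of its 5 probe sets were called. The mean of these 5 differed by 0.41, under 1.5-fold. The chaperone *Hsp90aa1* lay in the other direction, at 12.41, 12.35 and 12.62 against 12.995, 13.02 and 13.09, a difference of −0.57 (limma adjusted p = 2.80e-05) that did not overlap but stayed under 1.5-fold, and a second of its 5 probe sets was called lower (−0.62). *Arnt2*, a second partner, differed by −0.17 and *Ahrr*, the repressor of the receptor, by 0.068, and neither was called. Of the 8 listed genes of the receptor complex, 5 were measured, 2 higher (40%, against 7.52% of all genes) and none lower. The probe sets read expression only and say nothing of the mutation.

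The AHR gene battery did not move one way. Of 12 listed genes, 10 were measured, 2 higher (20%) and 3 lower (30%) in wild-type cells, against 7.52% and 6.52% of all genes. *Cyp1a1* codes for the P450 enzyme that oxidizes BaP and is the most widely used reporter of AHR activity. The 250 bases before its RefSeq start (GRCm38.p6, chr9:57697363-57697612, plus strand) are shown here, with a match to the core letters in capitals. The match describes the letters and not binding, and bases further upstream were not read.
Cyp1a1: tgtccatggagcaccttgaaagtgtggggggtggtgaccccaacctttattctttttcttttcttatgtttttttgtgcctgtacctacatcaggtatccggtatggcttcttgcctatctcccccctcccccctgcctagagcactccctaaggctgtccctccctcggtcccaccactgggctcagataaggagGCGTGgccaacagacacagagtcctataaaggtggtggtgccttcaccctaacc
The *Cyp1a1* signal was 9.61, 9.78 and 9.81 in wild-type cells and 8.32, 8.34 and 4.87 in *c*35 cells. All wild-type arrays were higher, but *c*35 replicate 3 was far below the other *c*35 arrays. The difference was 2.56 ± 0.67 (SE, limma adjusted p = 0.0048) with that array and 1.41 (limma adjusted p = 0.0366) without it. With the beta-actin or the *Gapdh* 3′ minus 5′ difference in the model, *Cyp1a1* kept its direction but was no longer called (differences of 2.86 and 2.69, limma adjusted p = 0.0605 and 0.0756).

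*Cyp1b1*, a second P450 enzyme of the battery, had signals of 6.70, 6.36 and 6.47 against 6.09, 5.86 and 5.02. The groups did not overlap and the difference was 0.86 ± 0.21 (limma adjusted p = 0.0031), but 1 of 3 probe sets was called, and without *c*35 replicate 3 the difference was 0.54, below the fold threshold. With either control probe ratio in the model it was not called (0.55 with *Gapdh* and 0.54 with beta-actin, limma adjusted p = 0.268 and 0.289). Without that array 1 battery gene and not 2 was called higher. *Nqo1*, a quinone reductase, lay at 9.17, 9.24 and 9.23 against 8.97, 8.91 and 8.68. It did not overlap between lines, and its difference of 0.36 (limma adjusted p = 0.0062) was below 1.5-fold.

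The 3 lower genes were *Xdh*, *Aldh3a1* and *Tiparp*. *Xdh*, which codes for xanthine dehydrogenase of purine breakdown, was at 7.83, 7.89 and 7.76 in wild-type and 9.60, 9.61 and 8.90 in *c*35 cells, a difference of −1.54 ± 0.16 (limma adjusted p = 1.17e-07). *Aldh3a1*, an aldehyde dehydrogenase, was at 7.48, 7.54 and 7.5 against 8.67, 8.65 and 8.36, a difference of −1.05 ± 0.10 (limma adjusted p = 5.18e-08). *Tiparp*, a mono-ADP-ribosyltransferase that curbs the receptor in a feedback loop, was at 9.05, 9.02 and 9.01 against 10.36, 10.30 and 9.34. In all 3 genes every wild-type array was below every *c*35 array, and *c*35 replicate 3 was the lowest of its group. The *Tiparp* difference was −0.98 ± 0.24 (limma adjusted p = 0.0028) and −1.31 without that array, all 3 of its probe sets were called lower, and with either control probe ratio in the model it was not called. The remaining battery genes, *Cyp1a2*, *Cyp2s1*, *Gsta2* and *Nfe2l2*, differed by 0.068, −0.29, −0.077 and −0.42 and were not called.

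**Figure D2:**
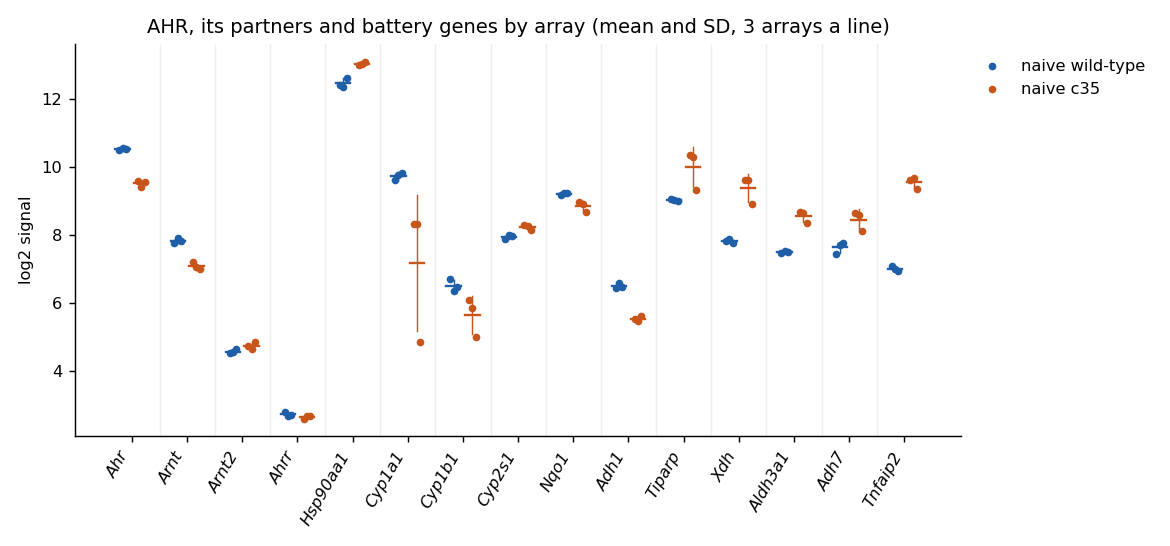
Log2 signal of each naive array (points), with the mean (bar) and SD (line) of 3 arrays a line, for the receptor, its partners, battery genes and other AHR-responsive genes. *Cyp1a1* in *c*35 cells spans 4.87 to 8.34 because of 1 array, whereas *Ahr* and *Tnfaip2* separate the lines with little spread.

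Several other genes that the study followed for AHR responses also differed between the naive lines. *Tnfaip2*, a TNF-inducible gene, was at 7.10, 7.00 and 6.93 in wild-type and 9.62, 9.67 and 9.35 in *c*35 cells, a difference of −2.54 ± 0.09 (limma adjusted p = 1.84e-14). *Adh7*, an alcohol dehydrogenase that acts on retinol, was lower in wild-type cells (7.45, 7.70 and 7.76 against 8.65, 8.6 and 8.12, difference −0.82), and its relative *Adh1* was higher (6.44, 6.6 and 6.48 against 5.54, 5.48 and 5.62, difference 0.96). In none of these genes did the lines overlap. *Adh7* was not called with the *Gapdh* or the beta-actin ratio in the model (−0.53 and −0.48, limma adjusted p = 0.0845 and 0.126) or with its probe sets averaged (−0.57). *Vegfc*, a growth factor of lymphatic vessels, was higher at 9.80, 9.75 and 9.81 against 9.03, 8.87 and 8.92 (difference 0.85). *Mgst2*, a microsomal glutathione transferase, was called higher at 0.82, but its lines overlapped, since wild-type replicate 1 was at 10.28 and the other wild-type arrays at 11.36 and 11.26, against 10.13, 10.29 and 10.01. Without that array its difference was 1.17. Among tumor suppressor genes that the study placed among receptor targets, *Pik3r1*, a subunit of phosphoinositide 3-kinase, was higher (0.78), *Ccn1*, a matrix signaling protein, was lower (−0.71), and *Foxo3* and *Prox1* differed by 0.52 and −0.17 and were not called. Without wild-type replicate 1, *Foxo3* was called higher (0.59, limma adjusted p = 4.93e-05).

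The 12 genes most above *c*35 in wild-type cells differed by 19.6- to 119-fold. *Fabp5*, a fatty acid binding protein, was at 11.38, 11.99 and 11.86 in wild-type cells and at 4.91, 4.50 and 5.14 in *c*35 cells, a difference of 6.89 ± 0.14 (SE, limma adjusted p = 2.72e-18) that both of its probe sets carried. *Cyp7b1*, the oxysterol 7-alpha-hydroxylase of the alternative bile acid pathway, was at 9.36, 9.43 and 9.31 against 3.89, 3.35 and 2.98 (difference 5.96). The wild-type arrays of both genes lay together and the *c*35 arrays were near the low end of the array's range.

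Transporters were among the rest. *Slc2a3*, the glucose transporter GLUT3, was at 10.78, 10.76 and 10.77 against 5.46, 5.38 and 5.08 (difference 5.46). Another *Slc2a3* probe set was higher by 5.04, but probe sets with low signals in both lines differed by 0.32 and 0.22 and were not called. *Abcg2*, an efflux pump of the ABC family, was at 9.94, 10.19 and 10.28 against 4.93, 4.79 and 4.94 (difference 5.25). *Slc16a12*, of the monocarboxylate transporter family, and *Slc40a1*, the iron exporter ferroportin, differed by 5.59 and 4.42. The lines did not overlap in these 4 transporters, which was a condition of their choice. The nuclear noncoding RNAs *Malat1* and *Neat1* followed. *Malat1* was at 9.28, 10.60 and 10.89 against 5.21, 5.14 and 5.41 (difference 5.00), with all 7 probe sets higher, and wild-type replicate 1, the array with the largest beta-actin 3′ minus 5′ signal, was the lowest of its group. Without that array the *Malat1* difference was 5.49. *Neat1*, the scaffold of paraspeckles, was at 10.43, 9.98 and 10.04 against 5.65, 5.45 and 4.89 (difference 4.82), but its second probe set differed by 0.066. *Car2*, a carbonic anhydrase, was at 10.20, 10.12 and 10.20 against 6.07, 5.60 and 5.96, and *Tmcc3*, *Ms4a4d* and *Agmo*, the last an enzyme that cleaves ether lipids, differed by 4.63, 4.58 and 4.30.

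The 12 genes most below *c*35 in wild-type cells differed by 9.43- to 58.9-fold. *Fam25c* was at 5.24, 6.65 and 6.95 in wild-type cells and at 12.02, 12.18 and 12.28 in *c*35 cells, a difference of −5.88 ± 0.25 (SE, limma), and −5.36 without wild-type replicate 1, the lowest array. *Ccl7*, a chemokine for monocytes, was at 5.75, 5.94 and 5.83 against 10.96, 10.94 and 10.86 (difference −5.08). *Col6a1*, a chain of collagen VI, was at 5.29, 5.06 and 4.87 against 9.81, 9.93 and 9.63 (difference −4.71). The arrays of a line agreed to within 0.5 for *Ccl7* and *Col6a1* but not for *Fam25c*. *Anxa8*, an annexin, was at 8.25, 8.28 and 8.33 against 12.15, 12.13 and 12.18 (difference −3.87), a change with a signal well above the low end in both lines. *Mt2*, a metal-binding metallothionein, was at 7.95, 8.84 and 8.55 against 11.78, 11.88 and 11.55 (difference −3.29). *Rgs10*, a brake on G protein signaling, *Prelp*, a matrix proteoglycan, the interferon-inducible *Ifi27l2a* and the secreted epidermal protein gene *Dmkn* differed by −4.46, −4.12, −4.07 and −3.97. *Slc6a13*, a GABA transporter, *Mrgprf*, an orphan receptor, and *Blnk*, an adaptor of B-cell receptor signaling, closed the list at −3.62, −3.30 and −3.24. All 24 genes were chosen for the size of this difference among called genes without overlap between lines. Their folds thus describe the extremes, and their lack of overlap was fixed by the choice.

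The same line difference could be read on arrays the naive comparison did not use. All 24 genes had the same call on the TCDD arrays and on the BaP arrays, with differences of 3.73 to 6.93 and 3.54 to 6.74 for the higher genes and of −5.64 to −2.76 and −5.82 to −2.86 for the lower genes. Over all genes, 2724 (15%) were called between lines with TCDD and 2876 (15.8%) with BaP. The naive and TCDD comparisons shared 1196 higher genes, which were 87.4% of the naive and 76.0% of the TCDD list, and 955 lower genes (80.5% and 83.0%), with 2 genes called in opposite directions. The naive and BaP comparisons shared 1109 higher genes (81.0% and 67.9%) and 919 lower genes (77.5% and 73.9%), with 5 in opposite directions. Of the 2555 genes called in naive cells, 1908 had the same call in all 3 comparisons.

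**Figure D3:**
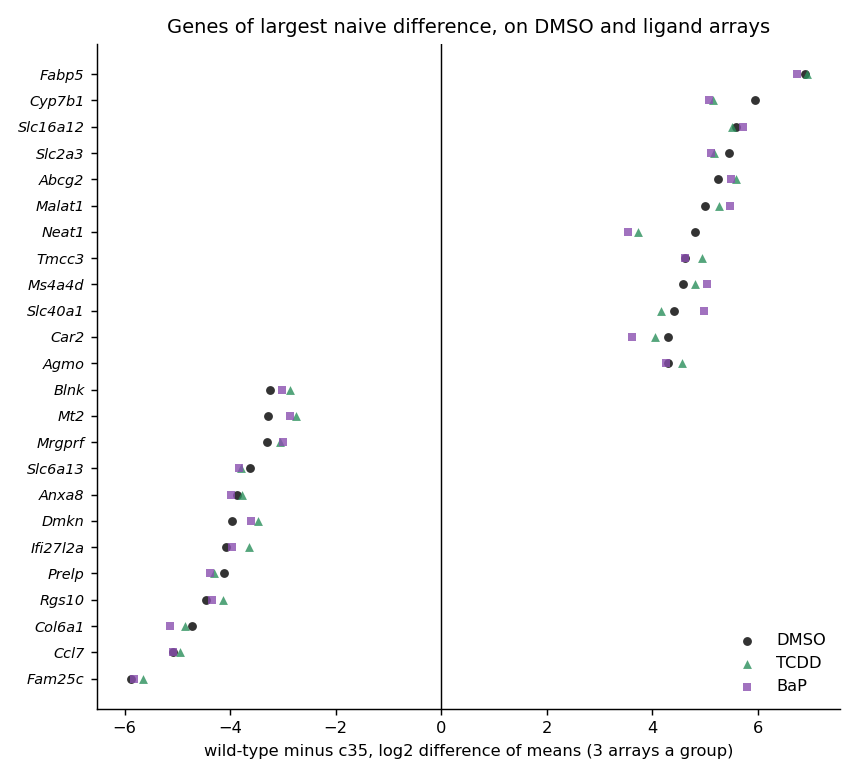
Line difference (wild-type minus *c*35, log2, x axis) of the 12 highest and 12 lowest genes in naive cells, as the difference of group means on DMSO arrays (circles), TCDD arrays (triangles) and BaP arrays (squares), 3 arrays a group. All 24 genes stay on their side of 0, and *Neat1* goes from 4.82 with DMSO to 3.73 with TCDD and 3.54 with BaP.

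Immediate early transcription factors are induced by serum and stress within minutes. Of 25 measured, 12 were lower in wild-type cells (48%, against 6.52% of all genes) and none higher, the median was −0.54 against −0.027 over all genes, and 22 had an unadjusted p under 0.05. *Junb*, a subunit of AP-1, was at 7.86, 7.93 and 7.95 in wild-type and 9.55, 9.57 and 9.57 in *c*35 cells (difference −1.65). *Fosl1*, another AP-1 subunit, was at 9.91, 9.97 and 9.89 against 11.50, 11.53 and 11.33 (difference −1.53), and *Jun* at 7.28, 7.46 and 7.57 against 8.70, 8.69 and 8.50 (difference −1.19). In all 3 the lines were well apart. The orphan nuclear receptor *Nr4a1* was at 8.16, 8.03 and 7.99 against 9.67, 9.72 and 8.94 (difference −1.38), with *c*35 replicate 3 again the lowest of its group, and its relative *Nr4a2* differed by −1.56. *Klf6*, *Dusp1*, *Klf4*, *Ier2*, *Maff*, *Zfp36* and *Klf2* were lower too, from −1.12 to −0.67. The classical members *Fos* (−0.46), *Egr1* (−0.54) and *Myc* (−0.16) were not called, nor were *Atf3* (0.25), *Egr2* (0.24), *Klf10* (0.20) and *Fosb* (0.079), which lay above 0. On the TCDD arrays 9 members and on the BaP arrays 7 were lower, and 7 were lower in all 3 comparisons. Leaving out 1 naive array at a time gave 11 to 14 lower members.

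Of 22 measured genes of cholesterol synthesis and uptake, 9 were lower in wild-type cells (40.9%), 1 was higher and 12 were not called, with a median of −0.54. *Hmgcs1*, the synthase ahead of HMG-CoA reductase, was at 10.07, 10.21 and 10.13 in wild-type and 11.06, 11.11 and 11.37 in *c*35 cells (difference −1.04). *Fdft1*, squalene synthase, was at 9.37, 9.42 and 9.25 against 10.49, 10.52 and 10.78 (difference −1.25). No array of one line reached the other line in either gene. *Msmo1*, *Idi1*, *Lss*, *Fdps*, *Nsdhl*, *Cyp51* and *Mvd*, which act between mevalonate and cholesterol, differed by −1.25, −1.13, −1.08, −0.85, −0.82, −0.80 and −0.70. The *Lss* difference was −0.28 when its probe sets were averaged. *Srebf2*, the transcription factor that drives the pathway, differed by −0.58 and *Sqle* by −0.34, and neither was called. *Tm7sf2*, a sterol reductase gene, was the higher member (0.65), and was not called without wild-type replicate 1 (0.50), without *c*35 replicate 1 (0.55) or with either control probe ratio in the model. With TCDD and with BaP 12 members were lower and none higher, and 9 members kept the same call in all 3 comparisons.

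Signaling genes of development differed in both directions, with more higher members. Of 62 measured WNT pathway genes, 14 were higher (22.6%, against 7.52% of all genes) and 3 lower, with a median of 0.019. The receptor *Fzd1* was at 10.73, 10.65 and 10.79 in wild-type and 7.23, 7.27 and 7.12 in *c*35 cells (difference 3.52 ± 0.10, limma adjusted p = 3.07e-16). The ligand *Wnt6* was at 12.28, 11.85 and 11.95 against 9.39, 9.51 and 9.51 (difference 2.56), and the ligand *Wnt10a* was also higher (1.05). The arrays of the 2 lines lay apart for both *Fzd1* and *Wnt6*. Receptors and coreceptors made up most of the rest, with *Ror1*, *Fzd4*, *Lgr4*, *Fzd7*, *Fzd6*, *Fzd8* and *Lrp6* higher by 2.40, 1.45, 1.29, 1.28, 0.73, 0.73 and 0.69. *Znrf3* and *Rnf43*, ligases that remove WNT receptors, were higher by 1.26 and 0.67, as were the kinase *Gsk3b* (0.86) and the nuclear effector *Tcf7l2* (0.68). *Wnt5b*, the inhibitor *Dkk2* and *Lgr5* were lower (−0.84, −0.80 and −0.61). *Dkk2* was not called with either control probe ratio in the model, and *Lgr5* was not called without wild-type replicate 2 (−0.44) or without *c*35 replicate 1 or 2 (both −0.58). Of these 17 genes 15 had the same call in all 3 comparisons.

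Of 51 measured vascular development genes, 11 were higher (21.6%) and 5 lower, with a median of −0.037. *Angpt1*, a ligand that stabilizes vessels, was at 10.12, 10.06 and 10.09 in wild-type and 6.66, 6.79 and 7.05 in *c*35 cells (difference 3.26). *S1pr1*, the receptor for sphingosine-1-phosphate, was at 8.15, 8.24 and 8.63 against 5.71, 5.66 and 5.80 (difference 2.62). Both separated the lines. *Fgf1*, *Epas1*, *Sema3c*, *Ephb4*, *Thbs1*, *Vegfa*, *Hif1a* and *Jag1* were higher by 1.70, 1.62, 1.57, 0.99, 0.82, 0.75, 0.70 and 0.61, beside *Vegfc*. The ephrin *Efna1*, the semaphorin receptor *Plxnd1*, the growth factor *Pdgfb* and the matrix protein *Ccn2* were lower by log2 differences of −2.5, −2.03, −1.12 and −0.96, beside *Ccn1*. Of 52 TGF-beta and BMP pathway genes, 8 were higher and 5 lower (15.4% and 9.62%, against 7.52% and 6.52% of all genes). The higher genes included *Bambi*, a decoy receptor (2.71), the receptor *Acvr2a* (1.53), the SMAD repressor *Skil* (1.47) and the ligand *Tgfb3* (0.94). The 5 lower genes were the activin antagonist *Fst* (−1.90), *Bmp4* (−1.67), *Ltbp4* (−1.61), *Tgif1* (−0.68) and *Smad6* (−0.66). Of 33 Hox genes 2 were higher, and of 43 brain development regulators 2 were higher, *Tcf4* (1.19) and *Meis1* (0.67), shares under the 7.52% of all genes, and no member of either list was lower. *Meis1* was not called without *c*35 replicate 3 (0.51), which left 1 higher member, without wild-type replicate 1 (0.58) or with either control probe ratio in the model, and without *c*35 replicate 2 the list had 4 higher members.

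**Figure D4:**
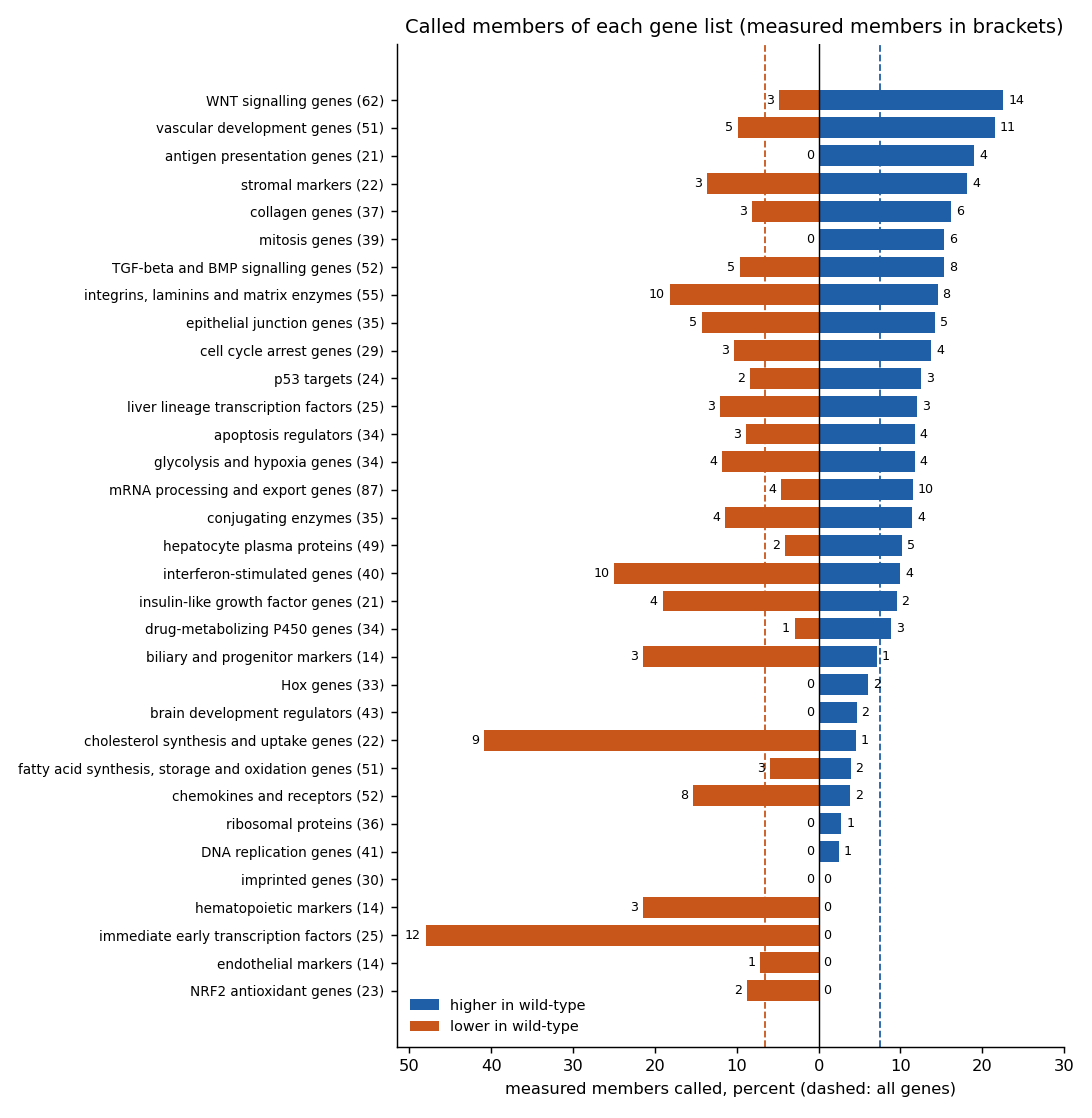
Share of members called higher (right, blue) or lower (left, orange) in naive wild-type than in naive *c*35 cells, for each gene list with at least 14 measured members, with the number of called members beside each bar and the shares over all genes as dashed lines (7.52% and 6.52%). The longest bars to the left are the 12 of 25 immediate early factors and 9 of 22 cholesterol genes lower, and the longest to the right is the 14 of 62 WNT genes higher.

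The lists of chemokines and interferon-stimulated genes held more lower than higher members. Of 52 chemokine and receptor genes, 8 were lower (15.4%, against 6.52% of all genes) and 2 higher (3.85%). *Ccl2*, which attracts monocytes as *Ccl7* does, was at 10.44, 11.32 and 11.33 in wild-type and 12.81, 12.81 and 12.69 in *c*35 cells (difference −1.74, or −1.44 without wild-type replicate 1). *Pf4* and *Ccl8* differed by −2.29 and −2.0. The higher members were *Cx3cl1* (0.80) and *Ccl25* (0.65), and their number was 4 without wild-type replicate 1 and 1 without wild-type replicate 2, where *Ccl25* was at 0.58. With probe sets averaged, neither *Cx3cl1* (0.31) nor *Ccl25* (0.39) was called. Of 40 interferon-stimulated genes, 10 were lower (25%) and 4 higher, with a median of −0.14. *Oas2*, an antiviral oligoadenylate synthetase, the membrane protein gene *Bst2*, which tethers virus particles, and the transcription factor *Irf9* differed by −2.0, −1.62 and −1.37, whereas the immunoproteasome subunit *Psmb8* was higher by 1.35. Antigen presentation genes had 4 higher and no lower members of 21, with *Cd1d1*, which presents lipids, at 1.85.

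Genes of the matrix and of cell contacts changed in both directions. Of 37 collagen genes, 6 were higher and 3 lower (16.2% and 8.11%, against 7.52% and 6.52% of all genes). *Col12a1*, *Col18a1* and *Col8a1* differed by 2.71, 1.12 and 1.05, and *Col6a3* and *Col3a1* by −2.06 and −1.29, beside *Col6a1*. With its probe sets averaged, *Col8a1* was not called (0.41). Of 55 integrins, laminins and matrix enzymes, 8 were higher and 10 lower (14.5% and 18.2%). The laminin chain *Lamb1*, *Nid1* and *Itgb5* were higher by 2.46, 1.29 and 1.22. *Plat*, the tissue plasminogen activator, and *Plaur*, the urokinase receptor, differed by −1.62 and −0.89. Of 35 epithelial junction genes, 5 were higher and 5 lower (14.3% each). The desmosomal cadherin *Dsc2* (3.38) and N-cadherin *Cdh2* (2.13) led the higher genes. The lower genes included desmoplakin *Dsp* and the claudin *Cldn2* (both −1.19).

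Liver identity genes differed for single members more than as groups. *Alb*, the gene of serum albumin, was at 13.84, 13.45 and 13.63 in wild-type and 11.22, 11.15 and 11.17 in *c*35 cells, a difference of 2.46 ± 0.09 (SE, limma adjusted p = 3.60e-14). The groups were far apart, whereas *Afp*, alpha-fetoprotein, differed by 0.18 and was not called. Of 49 plasma protein genes, 5 were higher and 2 lower (10.2% and 4.08%, against 7.52% and 6.52% of all genes). The higher were *Alb*, coagulation factor *F5* (2.63), *Fetub* (1.31), *Ttpa* (1.09) and *Itih2* (0.81), and the lower *Fgb* (−0.95) and *Rbp4* (−0.64). Without wild-type replicate 1, 8 members were higher. Of 25 liver transcription factors, *Tbx3*, *Hhex* and *Onecut2* were higher (1.42, 1.16 and 0.61) and *Cebpd*, the bile acid receptor *Nr1h4* and the oxysterol receptor *Nr1h3* lower (−2.55, −1.27 and −0.71). Each direction held 12% of this list. *Onecut2* was not called without wild-type replicate 2 or 3 or *c*35 replicate 1 (0.57, 0.53 and 0.51). *Gpc3*, a glypican of fetal liver and hepatocellular tumors, was at 10.28, 10.13 and 9.97 against 6.26, 6.47 and 6.23 (difference 3.81), while the biliary keratins *Krt19* and *Krt7* were lower in wild-type cells (−1.61 and −0.84). Every wild-type array had a *Gpc3* signal above every *c*35 array. *Gpc3* and these keratins belong to a list of 14 measured biliary and progenitor markers. Of these 1 was higher (7.14%), 3 were lower (21.4%) and 10 were not called, among them *Sox9* (−0.20), *Epcam* (−0.19) and *Cftr* (0.25).

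Markers of other cell types were read beside these groups. Of 22 stromal markers, 4 were higher and 3 lower (18.2% and 13.6%, against 7.52% and 6.52% of all genes). *Pdgfra* (1.59) was among the higher and *Acta2*, smooth muscle actin (−2.15), among the lower. With its probe sets averaged, *Pdgfra* was not called (0.50). The log2 of the summed signal of the stromal list was 15.3 to 15.7 in wild-type and 15.4 to 15.5 in *c*35 cells. For the 14 endothelial markers, with *Esam* lower (−1.39), it was 10.6 in each wild-type array and 11.5 to 11.7 in *c*35 cells. For the 14 hematopoietic markers, with *Cd68*, *Csf1r* (−1.25) and *Cd14* lower, it was 11.6 in each wild-type array and 12.6 in each *c*35 array, while *Ptprc*, the marker of all leukocytes, was near the low end in both lines. The endothelial sum followed *Esam*, at 9.84 to 9.91 in wild-type and 11.15 to 11.36 in *c*35 cells, and the hematopoietic sum followed *Csf1r*, at 10.70 to 10.76 and 11.94 to 12.02. The medians of the 2 lists were −0.056 and −0.049, so most members did not move with those genes. These sums were higher in the line where more chemokine and interferon genes were higher, and their part in those results was not tested.

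Of 39 mitosis genes 6 were higher (15.4%, against 7.52% of all genes) and none lower. This list is bright, with a median signal of 10.4 in wild-type cells. Among genes above the median signal that had a chromosome position, 11.1% were higher. *Ect2*, which drives cytokinesis, was higher by 0.99. The higher members *Cenpe*, *Cenpf* and *Kif11* were not called with their probe sets averaged (0.42, 0.39 and 0.24). Of 41 DNA replication genes 1 was higher, *Rpa1* (0.78), with 2 higher without wild-type replicate 2 or *c*35 replicate 3. The 30 imprinted genes had no call, with 7 at an unadjusted p under 0.05. mRNA processing and export genes had a median of 0.20. Of 87 such genes 10 were higher and 4 lower (11.5% and 4.60%, against 7.52% and 6.52% of all genes). Without *c*35 replicate 1, 16 were higher. This list is bright too, with a median signal of 10.8 in wild-type cells. Among genes above the median signal that had a chromosome position, 11.1% were higher and 10.9% lower. The cleavage factor *Cpsf6* (1.73), the export adaptor *Alyref* (1.35) and *Hnrnph1* (1.24) were higher, and *Sf3b2* (−1.22) and *Cpsf2* (−0.97) lower. *Srsf10* was called lower at −0.70 by its brightest probe set, but 3 of its probe sets were higher, their mean gave 0.59, and without wild-type replicate 1 the brightest gave −0.54 and was not called. Of 29 cell cycle arrest genes, *Sesn1* (1.57) and *Ccng1* (1.25) led the 4 higher (13.8%), and the stress genes *Gadd45b* (−2.22) and *Gadd45g* (−1.78) the 3 lower (10.3%). With a median signal of 8.01 in wild-type cells, this list too is to be set beside the shares of 11.1% and 10.9%.

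The differences were not spread evenly along the genome. Genes were placed by RefSeq (GRCm38.p6, used for gene order only, since no build of the array was used here), and 9066 placed genes above the median signal were read. Their median difference was −0.016. On chromosome 14 it was −0.40, with 103 of 294 genes lower (35%) and 7 higher (2.38%), and the median was −0.33 on the TCDD and −0.34 on the BaP arrays. The largest positive medians were on chromosomes 3 (0.26, with 106 of 446 genes higher and 29 lower) and 1 (0.23, with 109 of 518 higher and 25 lower). Each wild-type array had a chromosome 14 median below, and each *c*35 array above, the mean of the 6 arrays. With all placed genes and not only those above the median signal, an alternative chosen after seeing the data, the medians of chromosomes 14, 3 and 1 were −0.11, 0.072 and 0.056.

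Chromosome 12 divided in 2. From *Ptpn21* to the end of the chromosome, 58 of 91 genes were lower in wild-type cells and none higher, 88 lay below 0 and the median was −0.77. Before *Ptpn21*, 32 of 222 genes were higher and 11 lower, with a median of 0.079. The median of the distal genes was −0.67 on the TCDD arrays and −0.80 on the BaP arrays, so the arrays not used here showed the same shift. The boundary was placed, after the values were seen, where the running median of 31 neighbors dropped below −0.5. The distal stretch holds *Ifi27l2a*, of the 12 lowest genes above, and *Akt1*, the growth factor kinase. It also holds *Tnfaip2* (−2.54) and *Cpsf2* (−0.97), both named above. Across all chromosomes 18 runs of at least 4 neighboring genes shared a call, 11 lower and 7 higher, with 80 genes in all, and 5 of these runs with 24 genes were on chromosome 12. The longest held 7 lower genes in a row, *Tmem179*, *Inf2*, *Adssl1*, *Siva1*, *Akt1*, *Zbtb42* and *Cep170b*. A run of higher genes on chromosome 11 held the ABC transporters *Abca8b*, *Abca8a*, *Abca9*, *Abca6* and *Abca5*. A run of lower genes on chromosome 19 held *Fosl1*, named above among the immediate early factors. Of the 80 genes in runs, 70 had the same call with TCDD and 66 with BaP. The arrays measure RNA, and the number of gene copies in either line was not measured.

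**Figure D5:**
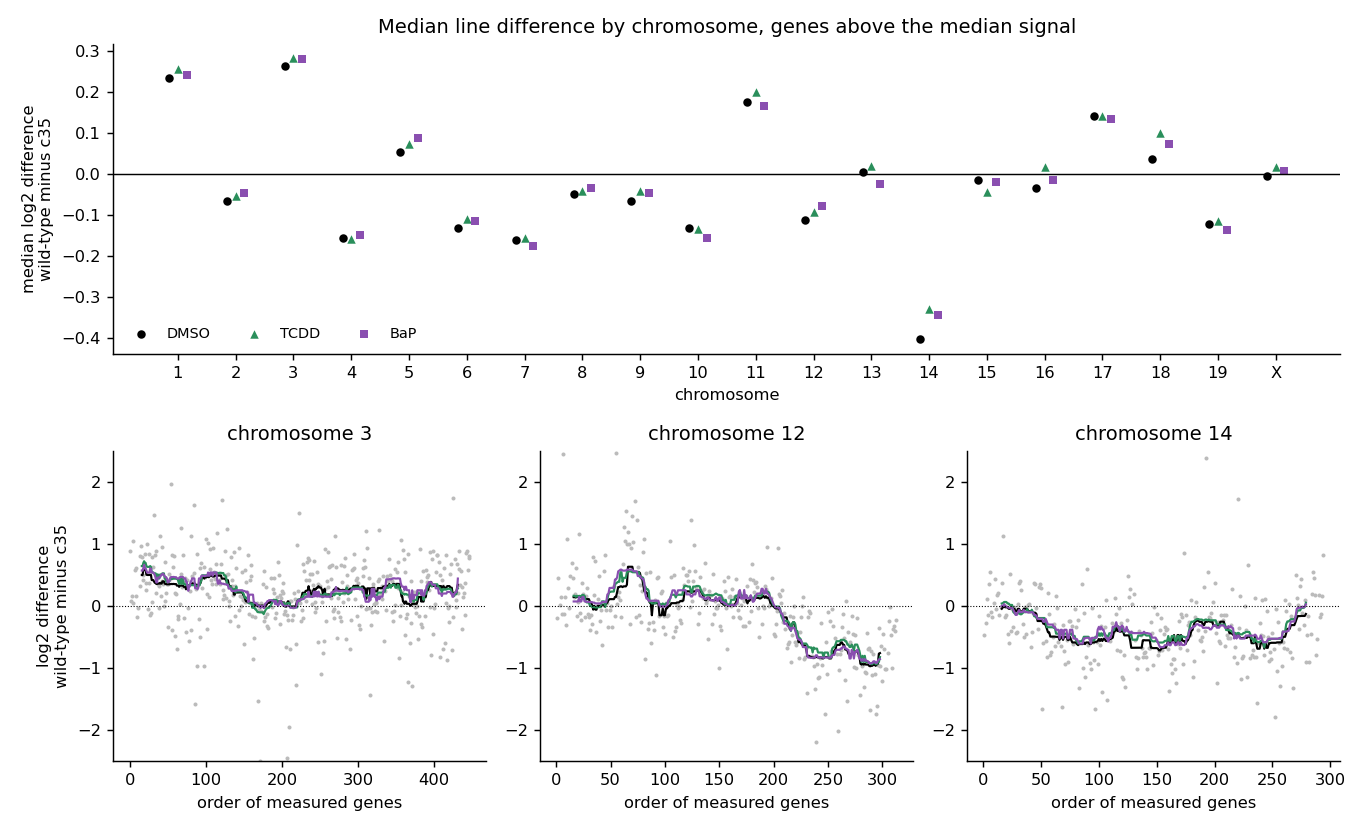
Top, median line difference (wild-type minus *c*35, log2) of the genes above the median signal on each chromosome, for DMSO, TCDD and BaP arrays. Bottom, difference of each such gene in naive cells (points) along chromosomes 3, 12 and 14 in gene order, with running medians of 31 genes for the 3 treatments in the same colors. Chromosome 14 has the lowest median, −0.40, and chromosome 12 has its lowest running medians in its distal part.

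The promoters of the genes that differed were searched for the core of the AHR binding element, GCGTG or, on the other strand, CACGC, over 250 bases before to 50 bases after each RefSeq start. A match describes the letters and not binding. The core was present at 32.4% of all promoters and, among genes above the median signal, at 52.5%. Among genes above the median signal its share was 49.5% for genes higher in naive wild-type cells, 50% for genes lower and 53.3% for genes not called. Over all measured genes the order was the other way, with 47.9%, 48.1% and 42.5%, so the comparison of called with other genes turned with the filter on signal. Of the genes with the largest differences that had a promoter to read, 2 of 6 higher and 5 of 9 lower genes had it at 1 or more of their starts. These are counts of genes, some with several starts, and are not comparable with the shares of promoters above. *Abcg2* and *Prelp*, counted here, had no copy in the 250 bases before the start. The upstream windows of 3 of them are given (RefSeq, GRCm38.p6, 5′ to 3′, core in capitals) to show it beside a strong difference in each direction. *Tmcc3*, higher by 4.63, has several starts, and the one at chr10:94550670-94550919 (plus strand) holds 3 copies. *Fam25c* (chr14:34355394-34355643, minus strand) and *Mt2* (chr8:94172368-94172617, plus strand), lower by log2 differences of −5.88 and −3.29, hold 1 each in this window.
Tmcc3: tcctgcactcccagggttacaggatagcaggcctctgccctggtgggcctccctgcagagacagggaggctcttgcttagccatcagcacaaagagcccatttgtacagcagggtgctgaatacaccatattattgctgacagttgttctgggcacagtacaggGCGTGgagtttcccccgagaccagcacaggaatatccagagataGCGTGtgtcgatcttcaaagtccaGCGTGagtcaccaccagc
Fam25c: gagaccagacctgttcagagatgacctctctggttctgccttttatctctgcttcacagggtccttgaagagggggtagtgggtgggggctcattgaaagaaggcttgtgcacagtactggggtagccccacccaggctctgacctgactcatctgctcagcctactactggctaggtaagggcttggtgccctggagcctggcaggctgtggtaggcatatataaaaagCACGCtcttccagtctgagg
Mt2: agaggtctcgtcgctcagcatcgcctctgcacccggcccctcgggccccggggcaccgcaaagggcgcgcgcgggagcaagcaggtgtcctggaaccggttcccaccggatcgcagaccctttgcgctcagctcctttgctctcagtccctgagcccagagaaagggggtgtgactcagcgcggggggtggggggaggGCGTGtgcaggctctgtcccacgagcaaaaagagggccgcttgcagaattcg
These windows were chosen because they hold the core, and the other *Tmcc3* starts have fewer copies before the start. They therefore do not compare the higher with the lower genes.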

How the data were processed

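RNA of 18 cultures was read on 1-color Affymetrix mouse expression arrays. The deposited values are log2 signals, which the authors made by RMA, that is, background correction, quantile normalization and summary of each probe set. The scanner files were not used here. Groups came from the sample labels, which number the replicates, and the series design calls the replicates biological. All 45037 probe sets other than the array's 64 controls among 45101 were fitted with limma 3.58.1 in R 4.3.3, with 1 mean for each of 6 groups over 18 arrays, a prior variance that follows intensity and Benjamini-Hochberg adjustment over all probe sets, after the study's own analysis of variance. A symbol came from the platform annotation, and 34945 probe sets had 1 symbol, 932 several and 9160 none. The text names the genes of the receptor and battery lists and of those the study followed, the 12 genes of largest change in each direction that have a proper symbol and no overlap between lines, and up to 4 called members a list and direction; other members are named beside these where a list is described in full and were then chosen after their values were seen. Members of the comparison and the 38 gene lists (1167 of 1287 genes measured) were chosen with earlier results of these data known. Alternatives changed the variance model, array weights, normalization, filter on low signals, treatment of several probe sets, control probe covariates, arrays in the fit, fold threshold and replicate block, and each naive array was left out in turn. The number of arrays, 3 a group, limits the precision. The fitting code was tested on simulated data.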

Additional observations from a re-analysis of the deposited data

Results flagged for a closer look

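For some of the 209 named genes the difference between lines on the ligand arrays differed from that on the naive arrays, by limma's test of the difference itself with adjustment over all probe sets. Both contrasts share the naive arrays. The named genes were chosen partly for their naive difference, which is subtracted here, and partly as genes known or followed for AHR responses. Their counts are therefore not comparable with the share of all genes. The values below are the line difference with ligand minus the naive line difference on the log2 scale, and a positive value says that wild-type cells stood higher against *c*35 cells with ligand than without it.

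With TCDD, 12 named genes differed in this way, all positive, against 51 (0.28%) of all genes read by 1 probe set each. They were *Cyp1a1* (4.63), *Cyp1b1* (1.49), *Cyp2s1* (1.297), *Nqo1* (1.35), *Aldh3a1* (1.42), *Tiparp* (3.15), *Xdh* (1.54), *Adh7* (1.57), *Hspa4l* (1.03), *Tnfaip2* (2.23), *Pfkfb3* (1.26) and *Ndrg1* (0.86). Their adjusted p ranged from 1.07e-08 to 0.049, with *Cyp1a1* at the upper end, and *c*35 DMSO replicate 3, the array in which *Cyp1a1* was at 4.87, enters every one of them. The naive *Pfkfb3* difference of 0.63 was not called without *c*35 DMSO replicate 3 (0.52) or without wild-type DMSO replicate 1 (0.57).

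With BaP, 25 named genes differed, against 243 (1.34%) of all genes, with adjusted p from 3.89e-10 to 0.0371. The 19 positive values were those of *Cyp1a1* (4.27), *Cyp2s1* (2.12), *Nqo1* (2.08), *Aldh3a1* (2.09), *Tiparp* (2.97), *Xdh* (2.03), *Adh7* (1.55), *Hspa4l* (1.15), *Tnfaip2* (2.66), *Srxn1* (0.74), *Hmox1* (1.67), *Rbp4* (0.75), *S1pr1* (0.74), *Fosl1* (0.86), *Nr4a1* (0.94), *Gadd45b* (1.03), *Pfkfb3* (1.06), *Ndrg1* (1.04) and *Plaur* (0.62). The 6 negative values were those of *Vegfc* (−0.65), *Neat1* (−1.28), *Tbx3* (−0.59), *Angpt1* (−0.896), *Bcl2* (−0.65) and *Ror1* (−0.99). Among the AHR battery genes, *Xdh*, *Aldh3a1* and *Tiparp* were thus lower in naive wild-type cells but had a line difference with ligand that was higher than the naive one.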

How the results depend on the processing

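Of the 209 named genes 198 were called, and 127 of these kept their call under every alternative; 153 kept it under all but the test against a 1.5-fold change, and 15 lost it in a fit that left out 1 array. The counts of genes with any called probe set were 1979 higher (and 1891 lower) in naive wild-type cells, 4235 between lines with TCDD and 4371 with BaP; the line difference differed from the naive one for 61 genes with TCDD and 313 with BaP. With the probe sets of each gene averaged the counts were 1022 and 1044 in naive cells, 2151 with TCDD, 2253 with BaP and 189 for the BaP difference. With no minimum change they were 3627, 4013, 8627, 8732 and, for the BaP difference, 530. The test against a 1.5-fold change gave 943, 884, 2071 and 2116, and 4 (TCDD) and 20 (BaP) differences. Array weights gave 111 TCDD differences. Leaving out 1 array at a time gave 1892 to 2072 higher, 1803 to 2040 lower, 4190 to 4357 with TCDD, 4337 to 4426 with BaP, 46 to 92 TCDD differences (92 without *c*35 DMSO replicate 3) and 229 to 410 BaP differences. With the beta-actin control ratio in the model the naive counts were 1932 and 1605, and with the *Gapdh* ratio 1949 and 1644. *Srsf10*, called lower at −0.70, was called higher at 0.59 (limma adjusted p = 1.24e-06) with its probe sets averaged. Of genes not called, *Hspa4l* and *Prox1* changed sign with averaged probe sets (0.12 and 0.095), the beta-actin ratio gave −0.064 for *Ahrr* and −0.14 for *Cyp1a2*, and leaving out 1 array at a time gave −0.018 (wild-type DMSO replicate 1) to 0.149 (*c*35 DMSO replicate 3) for *Cyp1a2*. The causes were not tested. Same-numbered arrays of the 2 lines had correlated deviations of 0.167, −0.033 and 0.138, so that not every pair exceeded 0.1 and the numbers do not pair the cultures; a replicate block gave 1978 higher and 1891 lower genes. Chromosome medians with all placed genes, an alternative chosen after seeing the data, moved toward 0 and were −0.11 on chromosome 14, 0.072 on 3, 0.056 on 1, 0.028 on 11, −0.042 on 12 and 0.037 on 17.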

Other observations

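*Ppargc1a*, the coactivator of mitochondrial biogenesis and gluconeogenesis, was at 7.41, 7.25 and 7.14 in wild-type and 4.16, 4.48 and 3.77 in *c*35 cells, a difference of 3.13 ± 0.13 (SE, limma adjusted p = 2.53e-13), with no overlap. It was 1 of 2 higher genes of 51 in the list of fatty acid synthesis, storage and oxidation, of which 3 were lower (3.92% and 5.88%, both under the shares of all genes), among them *Cpt1a* (−0.94), the enzyme that admits fatty acids to mitochondria. Of 21 insulin-like growth factor genes, 2 were higher, *Igfbp4* (1.16) and the receptor substrate *Irs1* (1.12), and 4 lower. *Igfbp6*, a binding protein that prefers IGF-2, was at 9.80, 10.11 and 10.03 against 13.13, 13.12 and 13.05, a difference of −3.12 ± 0.075 (SE, limma adjusted p = 4.23e-17), and *Igfbp3* differed by −1.17.

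Among detoxification genes outside the AHR battery, the glutathione transferases *Gsto2* (−2.41), *Mgst3* (−1.80) and *Gsto1* (−1.42) were lower in wild-type cells, and the alpha-class *Gsta3* (1.16) and the microsomal *Mgst2* (0.82) were higher. Of 35 conjugating enzymes 4 were higher and 4 lower (11.4% each, against 7.52% and 6.52% of all genes). Of 34 drug-metabolizing P450 genes 3 were higher (8.82%), with *Cyp4v3* at 1.71, and 1 lower (2.94%). Of 23 antioxidant genes under NRF2 2 were lower, *Srxn1* (−0.65) and heme oxygenase *Hmox1* (−0.61), and none higher, a share of 8.70% lower against 6.52% of all genes. *Hmox1* was not called without wild-type replicate 1 (−0.42), with array weights (−0.46) or with the *Gapdh* or beta-actin ratio in the model (−0.38 and −0.25). Of 34 apoptosis regulators 4 were higher (11.8%), with the BH3 protein gene *Bcl2l11* at 1.03, and 3 lower (8.82%), with *Bok* at −1.68. With its probe sets averaged, *Bcl2l11* was not called (0.48). Of 34 glycolysis and hypoxia genes 4 were higher and 4 lower (11.8% each), with *Ndrg1*, a hypoxia-inducible gene, at −1.91. The NRF2, apoptosis and glycolysis lists are bright, with median signals of 9.43, 8.18 and 9.74 in wild-type cells. Among genes above the median signal that had a chromosome position, 11.1% were higher and 10.9% lower.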
